A study of Mus musculus with 8 samples.

Results

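The endothelial and angiogenic genes described here are 35 mouse genes of blood and lymphatic vessels, taken by symbol (GENCODE vM21) from the 46517 genes listed in each kidney library. All 35 were found and all 35 had enough reads to be tested. They fall into 12 pan-endothelial surface, junction and secreted genes, 5 receptors for VEGF and angiopoietins, 2 angiopoietin ligands, 5 transcription factors, 2 capillary genes, 1 glomerular gene, 5 arterial genes and 3 lymphatic genes. They were measured in whole kidney from 4 cKO mice (KO16, KO18, KO19 and KO20) and 4 Control mice (C10, C11, C13 and C14), 1 library each. The cKO mice were Xpr1lox/lox-Pax8-rtTA/LC-1, in which doxycycline lets rtTA, driven by Pax8 in kidney tubule cells, switch on Cre and delete the floxed exon of Xpr1, a phosphate exporter and retrovirus receptor. The Control mice were Xpr1lox/lox littermates without those transgenes. Both groups carried the floxed alleles and drank doxycycline at 2 mg/ml for 2 weeks from the age of 8 weeks, so loss of Xpr1 and presence of rtTA and Cre cannot be told apart. Endothelial cells are not the cells in which the transgene is meant to act, so the comparison asks whether vessel genes of the whole organ differ when the nephron loses Xpr1.

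Endothelial cells line every vessel of the kidney, and their growth and upkeep depend on signals from neighbouring cells. VEGF-A, made in the kidney by podocytes and tubule cells, binds the receptors KDR (VEGFR2) and FLT1 on endothelium, and angiopoietin 1, made by perivascular and mesangial cells among others, activates the receptor TEK (TIE2). Angiopoietin 2, which endothelial cells release themselves, can oppose angiopoietin 1 at that receptor. Kidney endothelium is specialised by segment, with fenestrated glomerular capillaries, fenestrated peritubular capillaries rich in PLVAP, arteries with gap junctions and Notch signalling, and lymphatics.

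The libraries held 20366113 to 26155030 reads assigned to genes. Xpr1 stood at 5.74 to 26.5 CPM (read counts scaled to library size with TMM factors) in cKO kidneys and at 80.2 to 126 CPM in Control kidneys. Libraries within a group did not lean alike to short and long transcripts. Relative to the mean of the Control libraries, the longest sixth of genes lay at -0.98 (log2) in KO16, 0.34 in KO18, 0.23 in KO19 and -0.45 in KO20, against -0.26 in C10, -0.03 in C13, -0.04 in C14 and 0.33 in C11. Marker genes of other cells also differed between the groups. The summed level of 7 proximal tubule markers was 1238 to 2608 CPM in cKO kidneys and 5036 to 12980 CPM in Control kidneys, and that of 6 fibroblast markers was 290 to 426 CPM in cKO kidneys and 121 to 191 CPM in Control kidneys. For 7 macrophage markers the sum was 109.5 to 127 CPM in cKO kidneys and 55.7 to 92.9 CPM in Control kidneys, and for 4 erythroid markers 18.1 to 25.3 CPM in cKO kidneys and 25.5 to 53.1 CPM in Control kidneys. Sums of 7 mural and juxtaglomerular markers (210 to 354 CPM in cKO and 180 to 332 CPM in Control kidneys) and of 4 thick ascending limb markers (3374 to 5180 CPM in cKO and 3412 to 4123 CPM in Control kidneys) overlapped between the groups. In the mural and juxtaglomerular sum, Ren1 alone had 63.6 to 209 CPM in cKO kidneys and 50.1 to 85.5 CPM in Control kidneys. Of these 7 markers 4 had a log2 fold change above 0 and 3 below, from -1.20 (Myh11) to 0.79 (Ren1), and none passed the test described below. In bulk tissue, fewer endothelial cells and less RNA per endothelial cell cannot be told apart.

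Few of the endothelial genes passed the test. Of the 35 genes, 0 were higher and 1, Sox18, was lower in cKO kidneys by edgeR's quasi-likelihood test (Benjamini-Hochberg adjusted p under 0.05 over 15382 genes), and 34 did not pass. Among all genes tested 14.1% passed, 7.5% higher and 6.61% lower, so the share of endothelial genes that passed, 2.86%, was below the background. At an unadjusted p under 0.05 there were 6 (17.1%, against 27% of all genes), namely Vwf on the higher side and Sox18, Kdr, Angpt1, Pecam1 and Angpt2 on the lower side. The adjusted p-values that follow are from the edgeR test unless another tool is named.

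A total of 28 of the 35 had a log2 fold change (cKO over Control) below 0. The median of the 35 was -0.27. Of all genes tested 49.6% lay below 0, with a median of 0.01. The lean of the 35 rested on library C11 and on the scaling: without C11, 17 lay below 0 and 18 above (median 0.012), and with library totals alone 13 lay below 0 and 22 above. The groups did not overlap for 4 genes with cKO kidneys below Control kidneys (11.4% of the 35, against 11.6% of all genes tested), which were Sox18, Kdr, Angpt1 and Pecam1, and for 0 genes with cKO kidneys above (against 11.2% of all genes). DESeq2 called those same 4 genes lower and 0 higher, 11.4% of the 35 where it called 20.6% of all genes.

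**Figure D1:**
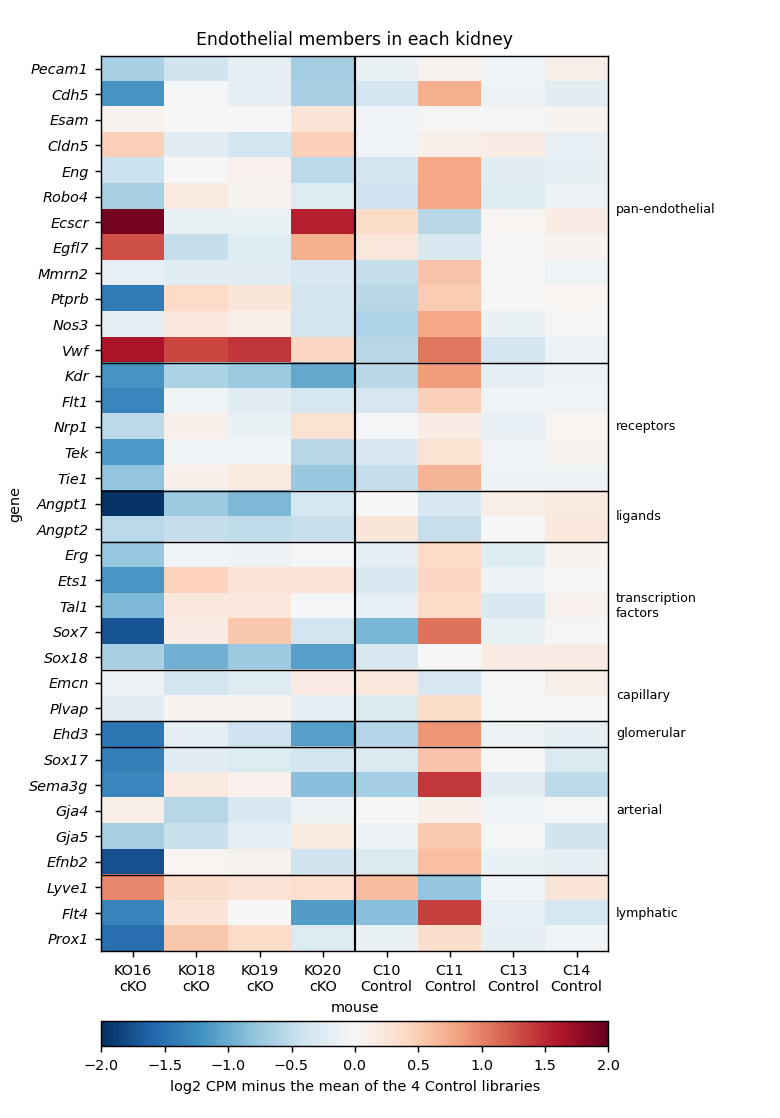
Level of each of the 35 endothelial genes (down the page, grouped by class) in each kidney (across, cKO left and Control right), as log2 CPM minus the mean of the 4 Control libraries; red is above and blue below that mean. KO16 is the lowest of all 8 libraries for 21 genes and C11 the highest for 20, while Sox18 is blue in all 4 cKO kidneys.

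The spread of these genes lay largely between libraries of 1 group. KO16 was the lowest of the cKO libraries for 22 of the 35 genes and C11 the highest of the Control libraries for 25. The median deviation of the 35 genes from the Control mean was -0.67 (log2) in KO16, -0.02 in KO18, -0.10 in KO19 and -0.35 in KO20, against -0.29 in C10, 0.42 in C11, -0.09 in C13 and -0.03 in C14. KO18 and KO19 differed by less than 1.2-fold for 32 of the 35 genes. The endothelial genes were somewhat longer than average, with 21 of 35 above the median exonic length of all genes tested (median 4712 bp, against 4152 bp), and within KO16 the longer ones lay lower: Spearman's rho between exonic length and deviation was -0.49 over the 35 genes of that library, while in C11 it was 0.40. These are descriptions across genes that share a library. How much of the spread follows from transcript length was not tested, beyond the fit with each library's length trend removed, in which Vwf passed on the higher side, Sox18 on the lower side, and 27 of 35 genes still lay below 0.

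**Figure D2:**
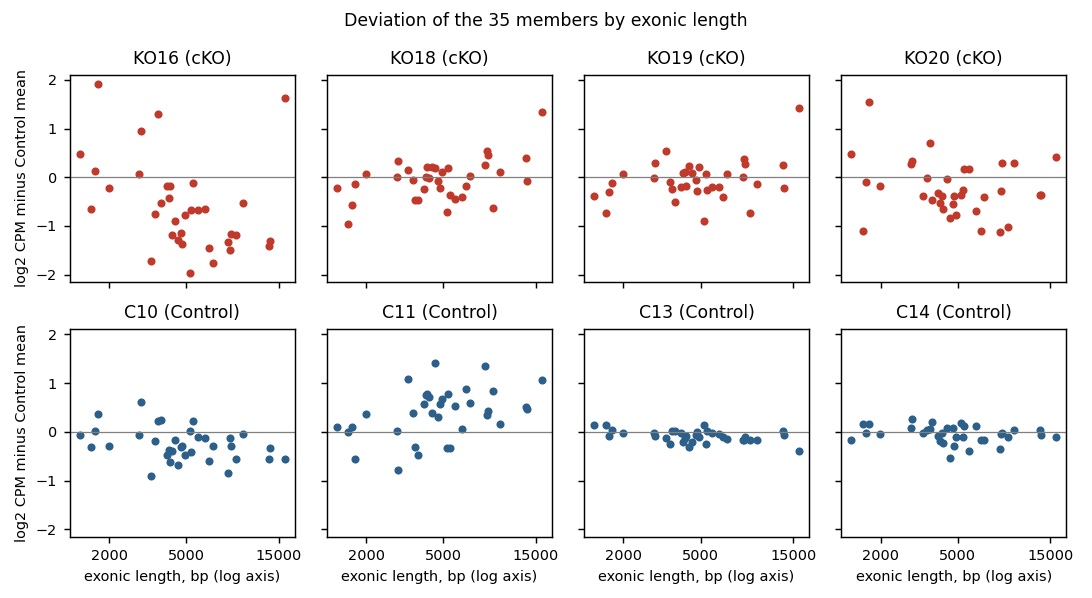
Deviation of each endothelial gene (1 point each) from the mean of the Control libraries, in log2 CPM, against exonic length in bp on a log axis, with 1 panel for each cKO kidney (upper line) and each Control kidney (lower line). The points fall with length in KO16 and rise with it in C11.

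Leaving out the libraries that stood apart changed which endothelial genes passed. Without KO16 and KO20, 2 of the 35 passed, Angpt1 and Sox18, both lower (5.71%, against 16.6% of all genes). Without KO16, KO20 and C11 the spread within groups was much smaller and 57.8% of all genes passed, and of the 35 endothelial genes 40.0% did. In that fit 6 were higher (Ets1, Flt4, Prox1, Ptprb, Sema3g and Vwf), 8 were lower (Angpt1, Angpt2, Ecscr, Egfl7, Emcn, Kdr, Pecam1 and Sox18), and the median of the 35 was -0.001. It compares 2 cKO kidneys with 3 Control kidneys chosen after their profiles were known.

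**Figure D3:**
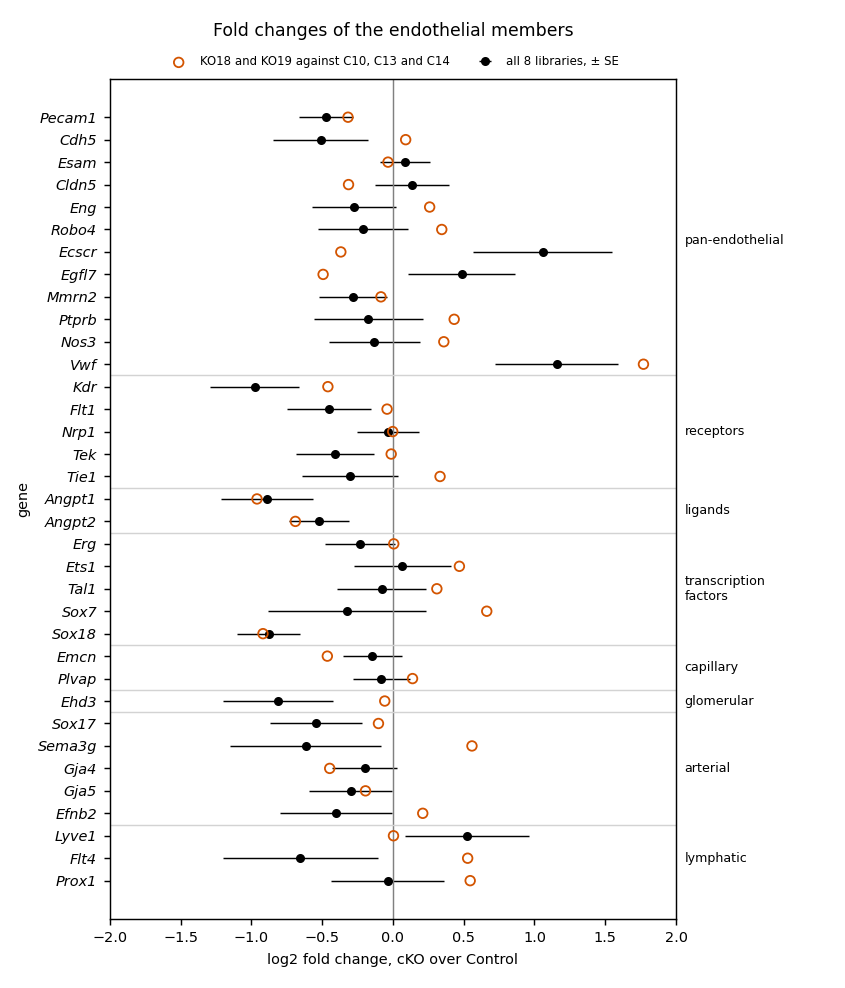
Log2 fold change (cKO over Control) of each endothelial gene. Black points with bars are the fit to all 8 libraries with its standard error, and open circles the fit to KO18 and KO19 against C10, C13 and C14. Sox18, Kdr, Angpt1, Angpt2 and Pecam1 lie below 0 and Vwf above 0 in both, while Ecscr, Egfl7, Sema3g, Flt4 and Sox7 change side.

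Pan-endothelial genes gave no common direction: of 12, 7 had a log2 fold change below 0 and 5 above, and none passed. Pecam1, the junctional adhesion molecule CD31 (ENSMUSG00000020717, chromosome 11, 106654217 to 106750628, minus strand, GRCm38), had 39.2, 46.2, 53.4 and 37.7 CPM in the cKO kidneys KO16, KO18, KO19 and KO20, against 56.0, 64.0, 59.1 and 66.1 CPM in the Control kidneys C10, C11, C13 and C14. Every cKO kidney lay below every Control kidney. Its log2 fold change, -0.47, did not pass (SE 0.19, adjusted p = 0.145; 0.0337 by DESeq2). Cdh5, the adherens junction protein VE-cadherin, had 9.83, 22.2, 19.8 and 14.4 CPM in cKO kidneys and 17.2, 36.9, 21.1 and 19.2 CPM in Control kidneys. Its groups overlapped, with KO16 lowest and C11 highest. It stood at -0.51 (SE 0.33, adjusted p = 0.373), and between -0.69 and -0.22 when 1 library was left out.

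A further 7 junction, surface and signalling genes had fold changes nearer 0. Esam, an adhesion molecule of tight junctions, had 25.3 to 30.7 CPM in cKO kidneys and 24.4 to 26.9 CPM in Control kidneys (log2 fold change 0.09, adjusted p = 0.809). Cldn5, the endothelial claudin, stood at 0.13, and Eng, a TGF-beta coreceptor, at -0.27. Robo4, a guidance receptor of vessels, stood at -0.21, Mmrn2, a matrix protein that binds VEGF, at -0.28, Ptprb, a phosphatase that restrains TEK, at -0.17, and Nos3, endothelial nitric oxide synthase, at -0.13. The adjusted p-values of these 6 genes were 0.512 to 0.842. Nos3 shares 25.2% of its exonic length with an antisense gene, and the strand setting of the counting is not given in the sources used here.

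Ecscr, a cell surface regulator of endothelial migration, and Egfl7, a protein that endothelial cells secrete, had their highest values in KO16 and KO20. Ecscr had 34.4, 8.19, 8.27 and 26.7 CPM in KO16, KO18, KO19 and KO20, against 11.7, 6.10, 9.26 and 10.2 CPM in the Control kidneys C10, C11, C13 and C14. KO16 and KO20 lay above every Control kidney and KO18 and KO19 below the Control kidneys other than C11. Its log2 fold change was 1.06 (SE 0.49, adjusted p = 0.204), and -0.18 without KO16 and KO20. Egfl7 had 102, 29.8, 34.97 and 67.4 CPM in the cKO kidneys and 33.5 to 48.4 CPM in the Control kidneys, with a log2 fold change of 0.49 (adjusted p = 0.463) that was -0.37 without KO16 and KO20. With the length trend removed the log2 fold change was 0.67 for Ecscr (adjusted p = 0.156) and 0.46 for Egfl7 (adjusted p = 0.433). What sets KO16 and KO20 apart for these genes was not tested. Egfl7 shares 7.4% of its exonic length with another annotated gene on the same strand, so its count is uncertain to that extent.

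Vwf, the clotting factor that large vessels and megakaryocytes make, was the member with the largest positive fold change. It had 4.52, 3.68, 3.94 and 1.90 CPM in KO16, KO18, KO19 and KO20, against 0.916, 3.01, 1.04 and 1.28 CPM in C10, C11, C13 and C14. The groups overlapped through KO20 and C11, and each of the other cKO kidneys lay above all Control kidneys. With all libraries it stood at 1.16 on the log2 scale (SE 0.44, adjusted p = 0.12), and at 1.68 with an adjusted p of 0.0195 without C11. Pf4, a chemokine of platelets and megakaryocytes, had 1.28 to 6.80 CPM in cKO kidneys and 0.521 to 0.965 CPM in Control kidneys (2.31, adjusted p = 0.0243), with KO16 and KO20 the highest. None of the 3 megakaryocyte and platelet markers tested passed by limma-voom or without KO16 and KO20. By DESeq2 2 of them were higher, as were 2 with the length trend removed and 2 without KO16, KO20 and C11. The summed level of 5 megakaryocyte and platelet markers was 10.9 to 17.4 CPM in cKO kidneys and 7.004 to 8.58 CPM in Control kidneys, with Gp9 and Gp1bb near 0 in all libraries. The part of such cells in the Vwf values was not tested.

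**Figure D4:**
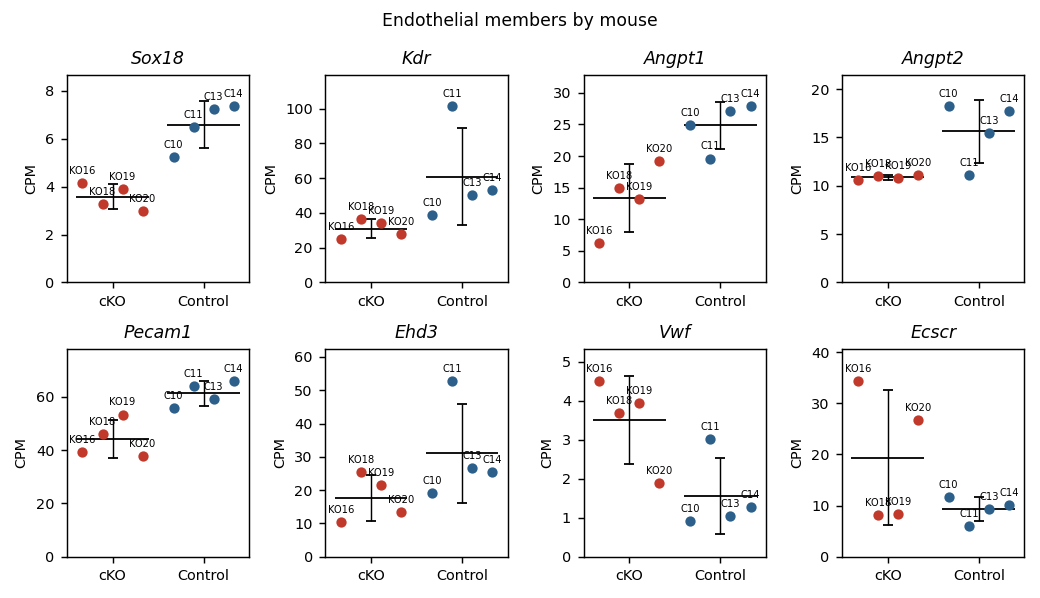
Level in CPM (linear axes from 0) of 8 endothelial genes in each kidney, cKO in red at the left and Control in blue at the right; lines and bars are the mean and SD of 4 mice. Sox18, Kdr, Angpt1 and Pecam1 do not overlap between the groups, and C11 stands high for Kdr, Ehd3 and Vwf.

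All 5 receptors for VEGF and angiopoietins had a log2 fold change below 0, and none passed. Kdr, the main signalling receptor for VEGF-A (ENSMUSG00000062960, chromosome 5, 75932827 to 75978458, minus strand, GRCm38), had 25.1, 36.6, 34.2 and 27.9 CPM in KO16, KO18, KO19 and KO20, against 38.5, 101, 50.3 and 53.2 CPM in C10, C11, C13 and C14. The groups did not overlap, though KO18 and C10 lay close together and C11 far above the rest. At -0.98, its log2 fold change was the most negative of the 35 (SE 0.31, adjusted p = 0.0717; 0.0208 by DESeq2). Without C11 it was -0.62, and without KO16, KO20 and C11 it was -0.46 (SE 0.15, adjusted p = 0.0218).

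Flt1, a VEGF receptor that also acts as a decoy, had 21.8, 51.1, 46.5 and 42.4 CPM in the cKO kidneys and 43.0, 75.1, 51.8 and 51.7 CPM in the Control kidneys. Only KO16 and C11 stood apart, and the other 6 libraries lay between 42.4 and 51.8 CPM. Its log2 fold change was -0.45 (SE 0.30, adjusted p = 0.376). Tek, the angiopoietin receptor TIE2, stood at -0.41 (SE 0.28, adjusted p = 0.39), and Tie1, its partner receptor, at -0.30 (SE 0.34, adjusted p = 0.626), which was 0.08 without KO16 and KO20. Nrp1, a VEGF coreceptor that other kidney cells also express, had 69.5 to 123 CPM in cKO kidneys and 89.2 to 111 CPM in Control kidneys (-0.04, SE 0.22, adjusted p = 0.941).

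The start regions of 4 vessel genes are given here to show the regulatory sequence next to the values. Among these 4 only Esm1, described below, passed the test. They come from RefSeq (GRCm38.p6) and run from 250 bases before to 50 bases after the annotated start, 5′ to 3′ on the gene's strand. Kdr lies at chr5:75978406-75978705 (minus), Flt1 at chr5:147725962-147726261 (minus), Ehd3 at chr17:73804591-73804890 (plus) and Esm1 at chr13:113209409-113209708 (plus). Capitals mark a match to the letters CNGGAAG on either strand, a core that ETS factors such as ERG and ETS1 can bind.
Kdr: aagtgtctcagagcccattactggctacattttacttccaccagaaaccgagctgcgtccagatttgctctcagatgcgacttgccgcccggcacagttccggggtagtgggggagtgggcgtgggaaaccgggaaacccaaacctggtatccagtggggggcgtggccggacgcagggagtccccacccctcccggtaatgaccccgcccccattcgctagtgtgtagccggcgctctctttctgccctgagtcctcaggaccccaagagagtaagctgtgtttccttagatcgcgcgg
Flt1: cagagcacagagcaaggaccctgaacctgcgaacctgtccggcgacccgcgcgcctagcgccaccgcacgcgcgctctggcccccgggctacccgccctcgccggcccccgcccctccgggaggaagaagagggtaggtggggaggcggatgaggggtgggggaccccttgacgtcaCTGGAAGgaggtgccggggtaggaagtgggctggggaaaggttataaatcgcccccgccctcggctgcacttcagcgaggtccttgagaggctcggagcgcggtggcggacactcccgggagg
Ehd3: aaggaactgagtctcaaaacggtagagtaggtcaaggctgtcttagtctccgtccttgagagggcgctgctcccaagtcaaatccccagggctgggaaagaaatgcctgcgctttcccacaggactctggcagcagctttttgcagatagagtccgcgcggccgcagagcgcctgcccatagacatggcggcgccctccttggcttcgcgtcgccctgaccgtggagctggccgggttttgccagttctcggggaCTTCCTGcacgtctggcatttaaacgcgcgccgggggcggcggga
Esm1: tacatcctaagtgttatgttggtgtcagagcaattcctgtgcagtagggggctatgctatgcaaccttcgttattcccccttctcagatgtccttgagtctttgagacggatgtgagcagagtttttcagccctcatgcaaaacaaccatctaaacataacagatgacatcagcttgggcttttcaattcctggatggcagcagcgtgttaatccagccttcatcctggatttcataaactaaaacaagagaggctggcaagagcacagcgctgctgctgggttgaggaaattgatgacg
The letters occur once in the windows of Flt1 and Ehd3 and are not in those of Kdr and Esm1. Of other genes that passed, not printed here, the window of Apln holds 2 matches and those of Vegfa and Edn1 hold 0. Windows were at hand for 19 of the 35 genes, 25 windows in all, of which 14 (56.0%) hold CNGGAAG, where 31.9% of 32851 windows of the same length do. The GATA core letters AGATAA occur in 3 of the 25 and in 11.2% of all windows. For the SOX core the letters searched were ACAAAG, which occur in 20.0% of the 25 and in 18.7% of all. Both strands were searched for each motif, and matches to different motifs may overlap. A match describes letters only and marks no bound site.

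Both angiopoietin ligands were low in cKO kidneys without passing the test. Angpt1, the TEK agonist (ENSMUSG00000022309, chromosome 15, 42424723 to 42676977, minus strand), had 6.27, 14.9, 13.2 and 19.2 CPM in KO16, KO18, KO19 and KO20, against 24.8, 19.6, 27.1 and 27.9 CPM in C10, C11, C13 and C14. The groups did not overlap, KO20 and C11 lying nearest to each other. Its log2 fold change was -0.89 (SE 0.32, adjusted p = 0.108; 0.0343 by DESeq2). Leaving out KO16 and KO20 gave -0.83 (adjusted p = 0.0364). Angpt1 shares 14.2% of its exonic length with an antisense gene, and the strand setting of the counting is not given in the sources used here.

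Angpt2, the ligand that endothelial cells store and release, had 10.6, 11.04, 10.8 and 11.1 CPM in KO16, KO18, KO19 and KO20, against 18.2, 11.1, 15.4 and 17.8 CPM in C10, C11, C13 and C14. The 4 cKO kidneys were nearly alike, and C11 sat with them, apart from the other Control kidneys. The log2 fold change was -0.52 (SE 0.21, adjusted p = 0.151), and without C11 it was -0.66 (adjusted p = 0.0483). Unlike most of the endothelial genes, Angpt1 and Angpt2 were lowest among the Control kidneys in C11.

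The balance of the ligands was compared within each library. The log2 ratio of Angpt2 to Angpt1 was 0.75, -0.43, -0.29 and -0.78 in KO16, KO18, KO19 and KO20, against -0.44, -0.82, -0.81 and -0.65 in C10, C11, C13 and C14. KO16 alone had more Angpt2 than Angpt1, and the other libraries overlapped. The means were -0.19 ± 0.66 in cKO kidneys and -0.68 ± 0.18 in Control kidneys (SD, n = 4 each), a difference of 0.49 (exact two-sided permutation test, p = 0.114, where 0.0286 is the smallest p that 4 against 4 can give). Without KO16 the difference was 0.18 (p = 0.229 by the same exact test), and without KO20 it was 0.69 (p = 0.0286 by the same exact test, the smallest that 3 against 4 can give). Of the 3 ratios tested none passed, with Benjamini-Hochberg adjusted p-values of 0.171, 0.171 and 0.486 by these exact tests.

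Among the transcription factors was Sox18, the only gene of the 35 that passed the test. Sox18, a SOX factor of arterial and lymphatic vessel development (ENSMUSG00000046470, chromosome 2, 181669836 to 181671640, minus strand), had 4.14, 3.29, 3.91 and 2.995 CPM in KO16, KO18, KO19 and KO20, against 5.26, 6.497, 7.26 and 7.36 CPM in C10, C11, C13 and C14. All 4 cKO kidneys lay below all 4 Control kidneys, with KO16 the highest of the cKO kidneys and C11 inside the range of its group. It fell to 3.59 ± 0.53 CPM in cKO kidneys, against 6.59 ± 0.97 CPM in Control kidneys (SD, n = 4 each), which is -0.88 on the log2 scale (SE 0.22, adjusted p = 0.0276). The call rests on few reads, 381 over the cKO libraries and 604 over the Control libraries, and 5 of 8 fits that leave out 1 library lost it: without KO18 (adjusted p = 0.0646), KO19 (0.0576), KO20 (0.122), C13 (0.0964) or C14 (0.0966). The fold change kept its sign in all 18 alternatives.

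Sox7, its close relative, had 0.425, 1.82, 2.42 and 1.22 CPM in the cKO kidneys and 0.820, 3.57, 1.48 and 1.60 CPM in the Control kidneys. The groups overlapped widely, with KO16 lowest at 8 reads. Its log2 fold change was -0.32 (SE 0.56, adjusted p = 0.767). Erg, an ETS factor that maintains endothelial identity, stood at -0.23 (SE 0.25, adjusted p = 0.612), and Tal1, a factor of blood and vessel progenitors, at -0.08 (adjusted p = 0.903). Ets1, an ETS factor that lymphocytes and other cells also express, had 13.9, 43.1, 38.0 and 38.5 CPM in the cKO kidneys and 25.5 to 42.0 CPM in the Control kidneys (0.07, adjusted p = 0.928). KO16 was the lowest of the 8 libraries for Ets1, and the other cKO kidneys were above the Control kidneys other than C11.

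Vessel segments were then set side by side. The median log2 fold change was -0.81 for the glomerular gene, -0.40 over 5 arterial genes, -0.11 over 2 capillary genes and -0.04 over 3 lymphatic genes. None of these 11 genes passed, and the groups overlapped for all of them. The order of these medians did not hold under other settings. With genes under a mean of 1 CPM left out, which drops Lyve1, the lymphatic median was -0.33 and the capillary -0.09. With library totals alone the medians were -0.45 (glomerular), -0.02 (arterial), 0.22 (capillary) and 0.36 (lymphatic), and without KO16, KO20 and C11 they were -0.06, -0.10, -0.16 and 0.53 in that order. The differences between segments were not tested.

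Ehd3, an endocytic protein that marks glomerular endothelium, had 10.5, 25.3, 21.6 and 13.4 CPM in KO16, KO18, KO19 and KO20, against 19.1, 52.9, 26.7 and 25.5 CPM in C10, C11, C13 and C14. C11 stood far above the rest, and KO18 and KO19 lay within the range of the Control kidneys. The log2 fold change was -0.81 (SE 0.39, adjusted p = 0.22), and -0.06 without KO16, KO20 and C11. The summed level of 8 podocyte markers followed the same libraries, at 147, 362, 331 and 212 CPM in KO16, KO18, KO19 and KO20 and 247, 545, 294 and 256 CPM in C10, C11, C13 and C14. Whether the Ehd3 values follow the amount of glomerulus in each sample was not tested. Relative to Pecam1, the log2 ratio of Ehd3 was -1.39 ± 0.43 in cKO kidneys and -1.08 ± 0.57 in Control kidneys (SD, n = 4 each; difference -0.30, exact two-sided permutation test, p = 0.486).

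The capillary genes were abundant and had small fold changes. Per exonic length, Plvap, the diaphragm protein of fenestrated capillaries, averaged 46.0 RPKM (CPM divided by exonic length in kilobases) in cKO kidneys and 48.6 RPKM in Control kidneys. Emcn, a surface sialomucin of capillaries and veins, averaged 15.9 RPKM in cKO kidneys and 17.6 RPKM in Control kidneys. Plvap had 81.9, 99.6, 99.6 and 84.4 CPM in the cKO kidneys and 77.9, 122, 93.3 and 92.9 CPM in the Control kidneys (log2 fold change -0.08, SE 0.20, adjusted p = 0.846). Emcn had 86.6, 73.2, 78.5 and 105 CPM in the cKO kidneys and 109, 74.3, 94.6 and 102 CPM in the Control kidneys (-0.15, SE 0.21, adjusted p = 0.71). The groups overlapped for both. Relative to Pecam1, however, the log2 ratio of Plvap was 1.06, 1.11, 0.90 and 1.16 in KO16, KO18, KO19 and KO20, against 0.48, 0.94, 0.66 and 0.49 in C10, C11, C13 and C14. KO19 and C11 made the groups overlap. The difference of means was 0.42 (exact two-sided permutation test, p = 0.0571), and 0.52 without C11 (p = 0.0286 by the same exact test, the smallest that 4 against 3 can give).

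The arterial genes all had a log2 fold change below 0, with overlapping groups. Sema3g, a secreted semaphorin of arteries, had 8.29, 23.4, 21.8 and 11.4 CPM in KO16, KO18, KO19 and KO20, against 12.8, 54.9, 17.7 and 14.2 CPM in C10, C11, C13 and C14. C11 was far above all others, and KO18 and KO19 lay above the other Control kidneys. The log2 fold change was -0.62 (SE 0.53, adjusted p = 0.511), and 0.56 without KO16, KO20 and C11. The libraries fell in the same order by Sema3g as by the summed podocyte markers, and also by the lymphatic gene Flt4. Whether the Sema3g values follow the amount of glomerulus in each sample was not tested. Sox17, the arterial SOX factor, stood at -0.55 (SE 0.32, adjusted p = 0.322), and Efnb2, the arterial ephrin ligand, at -0.40 (SE 0.39, adjusted p = 0.571). With 1 library left out these ran from -0.66 to -0.31 for Sox17 and from -0.58 to -0.13 for Efnb2. Sox17 shares 16.8% of its exonic length with a gene on the other strand. The connexin genes Gja4 and Gja5, which couple arterial endothelial cells, stood at -0.20 and -0.30 (adjusted p = 0.638 and 0.569).

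The lymphatic genes did not move together. Flt4, the receptor VEGFR3 for VEGF-C, had 2.66, 8.16, 6.79 and 3.08 CPM in KO16, KO18, KO19 and KO20, against 3.76, 17.6, 6.04 and 5.28 CPM in C10, C11, C13 and C14. C11 again stood far above the rest, and both KO18 and KO19 were above the other Control kidneys. The log2 fold change was -0.66 (SE 0.55, adjusted p = 0.495), and 0.53 without KO16, KO20 and C11. Prox1, the factor that sets lymphatic identity, had 3.13, 13.2, 11.8 and 7.47 CPM in the cKO kidneys and 8.25, 11.6, 8.04 and 8.78 CPM in the Control kidneys (-0.04, SE 0.40, adjusted p = 0.966). Lyve1, a hyaluronan receptor of lymphatic vessels and some macrophages, was near the limit of detection, with 45 reads over the 4 cKO libraries and 27 over the 4 Control libraries (0.52, adjusted p = 0.496). Lyve1 was thus too low to read a direction from. Prox1 averaged 8.92 CPM in cKO kidneys and 9.17 CPM in Control kidneys, where Lyve1 averaged 0.441 and 0.3045 CPM. Whether the reads of Prox1 and Flt4 came from lymphatic vessels or from other kidney cells was not tested.

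Ranked by level per exonic length in Control kidneys, Plvap, Emcn, Eng, Egfl7, Nrp1 and Pecam1 came first, at 48.6, 17.6, 17.0, 11.6, 10.2 and 9.84 RPKM, and Tal1, Lyve1 and Vwf last, at 0.503, 0.104 and 0.0973 RPKM. By the mean over cKO kidneys Plvap was also first, followed by Egfl7, Emcn, Eng and Ecscr, and Lyve1 was last. Kdr stood 16th in cKO kidneys and 9th in Control kidneys by this measure, and Ecscr 5th and 12th. These places are of group means. Within single cKO libraries Egfl7 stood 2nd in KO16 but 6th in KO18 and 4th in KO19, and Ecscr 3rd in KO16 but 13th in KO18 and 11th in KO19.

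Genes outside the 35 that signal to or from vessels were compared in the same way. Of 53 such genes tested 6 were higher and 3 lower, and 44 did not pass, so 17.0% passed, near the 14.1% of all genes. In the list of 13 VEGF and angiopoietin pathway genes, 3 were lower, 2 higher and 8 not past the test, with a median log2 fold change of -0.03. Vegfa, the main endothelial growth factor (chromosome 17, 46016993 to 46032369, minus strand), had 62.6, 149, 126 and 114 CPM in KO16, KO18, KO19 and KO20, against 214, 272, 232 and 228 CPM in C10, C11, C13 and C14. The groups did not overlap. On the log2 scale Vegfa fell by 1.07 (SE 0.27, adjusted p = 0.0303). The call was lost without KO19, KO20 or any 1 Control library (adjusted p up to 0.0842, without C13), and without KO16 and KO20 the log2 fold change was -0.79 (adjusted p = 0.0205). The call was also lost with library totals alone (0.178). Of 7 proximal tubule markers 5 fell, among them Slc34a1, at 222 to 866 CPM in cKO kidneys, against 2125 to 6768 CPM in Control kidneys, and the part of tubule cells in the Vegfa values was not tested.

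Esm1, a proteoglycan of the endothelial tip cells that VEGF stimulates (ENSMUSG00000042379, chromosome 13, 113209659 to 113218098, plus strand), had 17.9, 16.9, 18 and 23.2 CPM in KO16, KO18, KO19 and KO20, against 62.9, 37.5, 49.4 and 52.8 CPM in C10, C11, C13 and C14. The cKO kidneys formed a narrow band below all Control kidneys. On the log2 scale Esm1 fell by 1.41 (SE 0.23, adjusted p = 0.00404), and passed in all 8 fits that leave out 1 library (adjusted p up to 0.0187) and without KO16, KO20 and C11 (-1.69). Apln, the tip cell peptide apelin, fell to 1.97, 4.70, 3.64 and 2.87 CPM in KO16, KO18, KO19 and KO20, against 8.39, 10.6, 7.61 and 9.40 CPM in C10, C11, C13 and C14. The groups were well apart. The log2 fold change was -1.44 (SE 0.29, adjusted p = 0.0112), and it passed whichever library was left out, but not with library totals alone (adjusted p = 0.066). Aplnr, the apelin receptor, had 5.36 to 7.63 CPM in cKO kidneys and 8.91 to 12.6 CPM in Control kidneys (-0.68, SE 0.21, adjusted p = 0.0638). It passed by DESeq2 (adjusted p = 0.0199), with the length trend removed (0.0327) and without KO16 and KO20 (0.0375).

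The 2 higher genes of this list were scarce. Angpt4, a further angiopoietin, had 0.545 to 0.844 CPM in cKO kidneys and 0.0965 to 0.348 CPM in Control kidneys (log2 fold change 1.49, SE 0.39, adjusted p = 0.0332). Pgf, the placental growth factor that binds FLT1, had 0.801 to 1.54 CPM in cKO kidneys and 0.174 to 0.602 CPM in Control kidneys (1.49, SE 0.41, adjusted p = 0.0392). Each call was lost in 7 of 8 fits that leave out 1 library. Aplnr and Pgf were named after their values were seen.

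**Figure D5:**
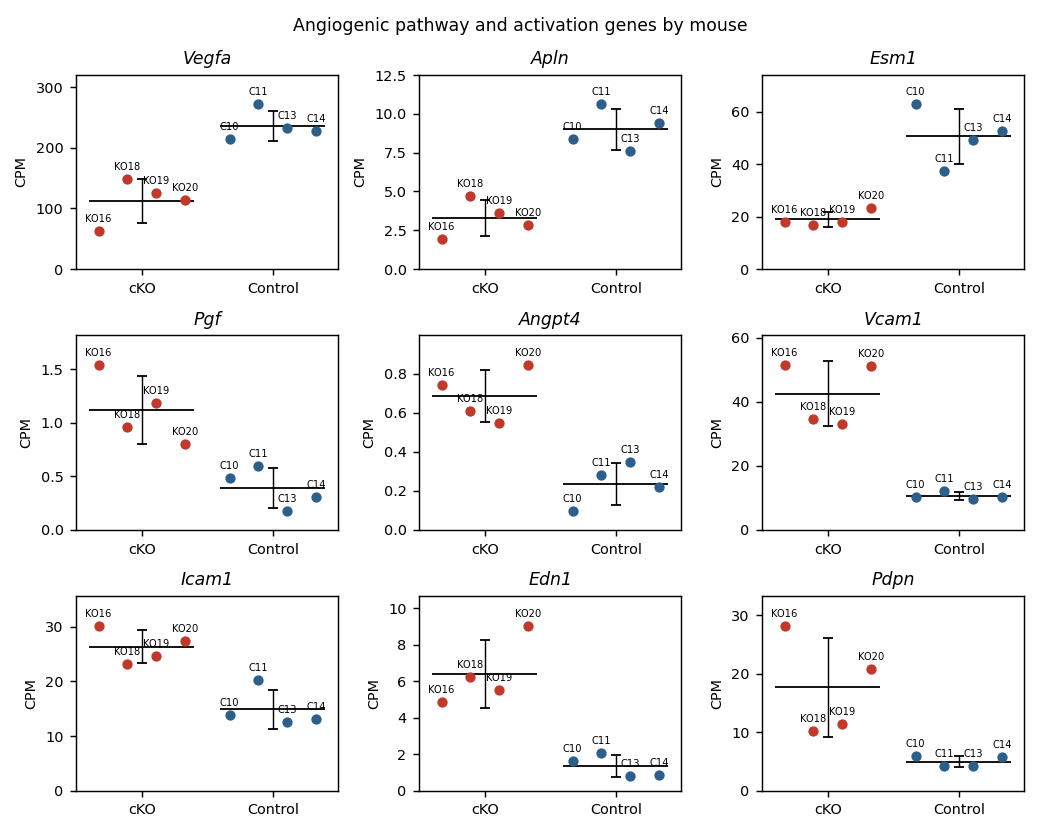
Level in CPM (linear axes from 0) of 9 further vessel genes that passed the test, in each kidney, cKO in red at the left and Control in blue at the right; lines and bars are the mean and SD of 4 mice. Vegfa, Apln and Esm1 are lower in all cKO kidneys than in any Control kidney, and Pgf, Angpt4, Vcam1, Icam1, Edn1 and Pdpn higher.

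Of 6 endothelial activation genes, 3 were higher in cKO kidneys (Vcam1, Edn1 and Icam1, where 7.5% of all genes were higher) and 3 had too few reads to test. Without KO16 and KO20, 2 of the 3 passed, and Icam1 did not (adjusted p = 0.0929). The untested genes were the selectins Sele and Selp and the chemokine receptor Ackr1, and Sele, which is largely restricted to endothelium, had 0.159 to 0.380 CPM in cKO kidneys and 0.261 to 0.482 CPM in Control kidneys. Vcam1, an adhesion molecule for leukocytes, rose to 51.5, 34.7, 32.97 and 51.2 CPM in KO16, KO18, KO19 and KO20, against 10.3, 12.3, 9.56 and 10.2 CPM in C10, C11, C13 and C14. The groups were widely separated. The log2 fold change was 2.01 (SE 0.23, adjusted p = 0.00101), and 1.72 without KO16, KO20 and C11.

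Edn1, which encodes the vasoconstrictor endothelin 1, rose to 4.83, 6.21, 5.51 and 9.03 CPM in KO16, KO18, KO19 and KO20, against 1.64, 2.09, 0.826 and 0.842 CPM in C10, C11, C13 and C14 (log2 fold change 2.24, SE 0.37, adjusted p = 0.00484). The groups did not overlap. Vcam1 and Edn1 passed in every fit that left out 1 library. Icam1, an integrin ligand, rose to 23.2 to 30.1 CPM in cKO kidneys, against 12.6 to 20.2 CPM in Control kidneys (0.82, SE 0.22, adjusted p = 0.0395), a call lost in 6 of 8 such fits (adjusted p up to 0.144, without C13). Tubule, stromal and immune cells also express Vcam1, Icam1 and Edn1. Macrophage markers rose in the same kidneys, 4 of the 6 tested, and the cells from which these reads came were not tested.

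Other vessel lists held few calls. Of 22 further endothelial genes 0 passed by edgeR, with 4 higher and 0 lower at an unadjusted p under 0.05 and 2 higher by DESeq2, and a median log2 fold change of -0.02. The smallest p-values were those of Thbd, the anticoagulant receptor thrombomodulin (0.58, adjusted p = 0.092), and Mcam, an adhesion molecule of endothelium and pericytes (0.71, adjusted p = 0.0931). Of 9 Notch and arterial genes 0 passed by edgeR, 1 was lower at an unadjusted p under 0.05 and 0 passed by DESeq2. The smallest p-values there were those of the Notch target Hey2 (-0.75, adjusted p = 0.127) and the Notch ligand Dll4 (-0.47, adjusted p = 0.352). Of 6 further lymphatic genes 1 passed: Pdpn, podoplanin, rose to 28.2, 10.2, 11.3 and 20.9 CPM in KO16, KO18, KO19 and KO20, against 5.88, 4.17, 4.17 and 5.72 CPM in C10, C11, C13 and C14 (1.82, SE 0.36, adjusted p = 0.0103); without KO16, KO20 and C11 its log2 fold change was 1.0005 (adjusted p = 0.000785). Podocytes and fibroblasts also express Pdpn, 2 of 6 fibroblast markers rose (Col3a1 and Dcn), and 0 of 8 podocyte markers passed by edgeR, with 1 lower at an unadjusted p under 0.05 and 1 lower by DESeq2.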

How the data were processed

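Deposited values were raw counts of reads per Ensembl gene, per the file headers and values; per the submitters' processing notes the authors used cutadapt 1.3, STAR 2.4.0g and HTSeq 0.6.1 with GRCm38. The strand setting of the counting is not given in the sources used here; 9 of the 35 genes share exonic bases with another gene. Lines that name no gene held 39.7% to 56.2% of each file's total and were left out. Of 46517 identifiers, 46005 matched GENCODE vM21. Each mouse gave 1 library (500 ng of total RNA), and p-values measure the spread between libraries, which may be technical in part.

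cKO was compared with Control in edgeR 4.0.16 under R 4.3.3, scaled by TMM factors (0.925 to 1.3 in cKO and 0.841 to 0.973 in Control libraries), filterByExpr (minimum count 10, minimum total 15) and the quasi-likelihood F test on 8 libraries without covariates, adjusted over 15382 genes by Benjamini-Hochberg. SEs come from the F statistic. RPKM used the union of exons; log2 ratios used a prior count of 2. Deviations from the Control mean used log2 of CPM plus 0.1. Alternatives used DESeq2 1.42.0, limma-voom (3.58.1), other scalings and filters, a loess length trend (span 0.5) and fewer libraries.

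The 35 genes and all lists were chosen with earlier results of these data known. Text names all 35, and of each further list the 4 with the smallest p that passed, or 2 where none did. Promoter windows came from RefSeq.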

Additional observations from a re-analysis of the deposited data

Results flagged for a closer look

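In a group of 4 mice, a library was marked where its gap to the nearest other library exceeded Dixon's 95% critical share of the group's range. Among 104 groups of 4 (each named gene in each genotype) 9 were so marked, and chance marks about 1 in 20. Of these, 6 were Control groups in which C11 stood above the others: Eng at 111 CPM (others 50.5 to 57.0), Sema3g at 54.9 CPM (12.8 to 17.7), Efnb2 at 19.1 CPM (10.4 to 11.5), Flt4 at 17.6 CPM (3.76 to 6.04), Mcam at 19.8 CPM (11.6 to 11.7) and Icam1 at 20.2 CPM (12.6 to 13.8). In cKO mice, KO16 was low for Erg at 6.004 CPM (others 9.54 to 10.1) and high for Lyve1 at 0.638 CPM (0.364 to 0.384, from 12 reads in KO16), and KO20 was high for Thbd at 35.6 CPM (25.3 to 25.8). What sets these libraries apart was not tested.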

How the results depend on the processing

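Of the 35 endothelial genes, 10 kept the sign of their fold change in all 18 alternatives: Angpt1, Angpt2, Ehd3, Flt1, Kdr, Pecam1, Sox17, Sox18, Tek and Vwf. Over fits without 1 library, 0 to 2 were called lower, 0 to 1 higher, and 1106 to 2697 of all genes were called. None was lower with upper-quartile factors (Sox18 adjusted p = 0.0569), library totals (0.143) or no filter (0.0528), whereas DESeq2 called 4, and removing the length trend left 1 higher. Without KO16 and KO20, 2 were lower; without C11 as well, 8 were lower and 6 higher, among 9175 genes. Upper-quartile factors and totals move the median of all genes to 0.14 and 0.34 and the higher share of calls to 63.9% and 81.2%, against 53.2%. Signs turned with upper-quartile factors for Nos3 (0.0094), Nrp1 (0.10), Tal1 (0.0477), Plvap (0.0566) and Prox1 (0.0814). With totals the median of the 35 was 0.0628, and Eng (0.0628), Robo4 (0.13), Mmrn2 (0.0292), Ptprb (0.21), Nos3 (0.19), Nrp1 (0.30), Tie1 (0.058), Erg (0.11), Tal1 (0.28), Sox7 (0.0467), Emcn (0.18), Plvap (0.25), Gja4 (0.10), Gja5 (0.0244) and Prox1 (0.36) turned. With the length trend removed Cldn5 (-0.20), Nrp1 (0.19) and Prox1 (0.0186) turned, and with limma-voom Ets1 (-0.0263). Without KO16 and KO20 those that turned were Esam (-0.0079), Cldn5 (-0.31), Robo4 (0.0444), Ecscr (-0.18), Egfl7 (-0.37), Ptprb (0.27), Nos3 (0.0618), Tie1 (0.0825), Tal1 (0.19), Sox7 (0.17), Plvap (0.0365), Prox1 (0.44) and the ratio of Ehd3 to Pecam1 (0.0021). Without C11 as well they were Cdh5 (0.09), Esam (-0.0348), Cldn5 (-0.31), Eng (0.26), Robo4 (0.35), Ecscr (-0.37), Egfl7 (-0.49), Ptprb (0.43), Nos3 (0.36), Tie1 (0.33), Erg (0.0058), Tal1 (0.31), Sox7 (0.66), Plvap (0.14), Sema3g (0.56), Efnb2 (0.21), Flt4 (0.53), Prox1 (0.55) and the ratio (0.27). Leaving out 1 library turned Eng (-0.41 to 0.0519), Robo4 (-0.36 to 0.12), Ptprb (-0.41 to 0.0848), Nos3 (-0.32 to 0.20), Nrp1 (-0.11 to 0.10), Ets1 (-0.0839 to 0.32), Tal1 (-0.19 to 0.12), Sox7 (-0.67 to 0.20), Plvap (-0.18 to 0.0473), Sema3g (-0.85 to 0.12), Flt4 (-0.97 to 0.0425) and Prox1 (-0.29 to 0.24). The causes were not tested. No paired analysis was possible because the labels name different mice in each group with no pairing, and replicate numbers follow accession order only.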
